A study of Sus scrofa with 6 samples.

Results

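The genes described here encode the carriers of the inner mitochondrial membrane and the machinery that brings proteins into mitochondria and processes them there. They were chosen by gene symbol, as all genes on the array whose name begins with SLC25A, TIMM, TOMM, CHCHD, IMMP, OXA1L, PMPC or SAMM50. This gave 49 of 6765 named genes, 21 of them SLC25A carriers and 28 from import, folding and processing, and the rule itself uses no measured value. Expression was measured on 6 Affymetrix Porcine Genome Arrays, 3 of IPEC-J2 and 3 of IPEC-1, each array from 1 culture. Both are epithelial lines that were derived from the small intestine of piglets and immortalised spontaneously, grown untreated on membrane inserts in medium with foetal calf serum, insulin-transferrin-selenium and epidermal growth factor. The labels give 7 days of culture, where the methods give a later day. Each line is a single cell line, so the spread between its arrays is the spread between cultures and does not cover other animals.

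Most mitochondrial proteins are made in the cytosol and cross the outer membrane through the TOM complex. The TIM23 complex then draws proteins with a presequence into the matrix, while small TIM chaperones hand hydrophobic carriers to the TIM22 complex and the CHCHD4 relay folds proteins with paired cysteines in the intermembrane space. Presequences are removed by the matrix peptidase PMPCA/PMPCB, and the SLC25A carriers that end up in the inner membrane exchange ATP, phosphate, metabolites and cofactors between matrix and cytosol, a traffic on which an absorbing epithelium with a high need for ATP depends.

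All values are deposited signals on the log2 scale, averaged over the probe sets of a gene, and differences are IPEC-J2 minus IPEC-1. The lowest value in the table is 4.00 on every array, and signals at this value have no order. No detection calls were used, so a low signal above it was not separated from background. Between 40.5 and 48.3% of the probe sets lay at the lowest value on an array, most on IPEC-J2 replicate 1. Of the 60 probe sets of these 49 genes, 4 lay there on IPEC-J2 replicate 1 alone, in SLC25A3, SLC25A24, TIMM44 and TOMM34. The labelled epithelial type was checked with 11 epithelial markers on the array, of which 10 were above the lowest value. Their mean log2 signal lay between 10.2 and 10.4 in IPEC-J2 and between 8.94 and 9.66 in IPEC-1, and the epithelial adhesion molecule EPCAM averaged 13.55 in IPEC-J2 and 13.39 in IPEC-1. VIL1, CLDN3, EZR and CLDN7 were higher in IPEC-J2, by 6.90, 2.14, 1.44 and 1.09, with CLDN3 at 4.00 on all arrays of IPEC-1 and VIL1 on its replicate 2, and KRT19 was lower (-0.80). There were 5 positive and 5 negative differences over the 10 markers, with a median of 0.04. The enterocyte marker FABP2 lay at the lowest value on all 6 arrays. Of 15 markers of mesenchyme, blood and endothelium, 9 were above it. THY1 was higher in IPEC-J2 by 5.55, with 4.00 on all arrays of IPEC-1. CD3E (-1.93), HBB (-0.83) and PECAM1 (-1.46) were lower, with CD3E at 4.00 on all arrays of IPEC-J2. VIM had -1.38 without overlap and did not pass (limma adjusted p = 0.0523). Over the 5 measured mesenchymal markers, 2 differences were positive and 3 negative. PTPRC, CDH5, VWF, COL3A1, ACTA2 and DES lay at the lowest value throughout. The mean of the 8 mesenchymal markers was 6.35 to 6.46 in IPEC-J2 and 5.90 to 6.01 in IPEC-1, that of the 4 blood markers 5.31 to 5.54 in IPEC-J2 and 5.87 to 6.17 in IPEC-1, and that of the 3 endothelial markers 4.00 to 4.29 in IPEC-J2 and 4.55 to 4.63 in IPEC-1. The part of these markers in the results was not tested. Array signals come from all cells of a culture, so fewer cells that express a gene and less RNA per cell cannot be told apart.

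Of the 49 genes, 46 were measured on at least 1 array, while SLC25A11, SLC25A48 and SLC25A51 lay at the lowest value on all of them. IPEC-J2 showed 10 genes significantly higher and 5 significantly lower in comparison to IPEC-1 (limma, adjusted p under 0.05 after Benjamini-Hochberg adjustment over 5513 measured genes). The 10 higher genes were 21.7% of the 46, beside 12.0% of all measured genes, and the 5 lower genes were 10.9%, beside 13.8%. In 13 genes (28.3%) all 3 arrays of IPEC-J2 lay above all 3 of IPEC-1, beside 19.9% of all measured genes, and in 17 genes (37.0%) they lay below, beside 27.6%. The genes therefore moved in both directions. Their median difference was 0.00, beside -0.05 over all measured genes, and 23 had a positive and 23 a negative difference. The median size of the difference was 0.34, beside 0.40, and 7 genes (15.2%), 4 of which passed, differed by more than 1 on the log2 scale, beside 17.3% of all measured genes. The median SD over the 46 genes was 0.115 in IPEC-J2 and 0.106 in IPEC-1, beside 0.176 and 0.166 over all measured genes. A mean signal under 8 was found in 12 of the 46, beside 49.8% of all measured genes. The part of this spread and signal level in the shares above was not tested.

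**Figure D1:**
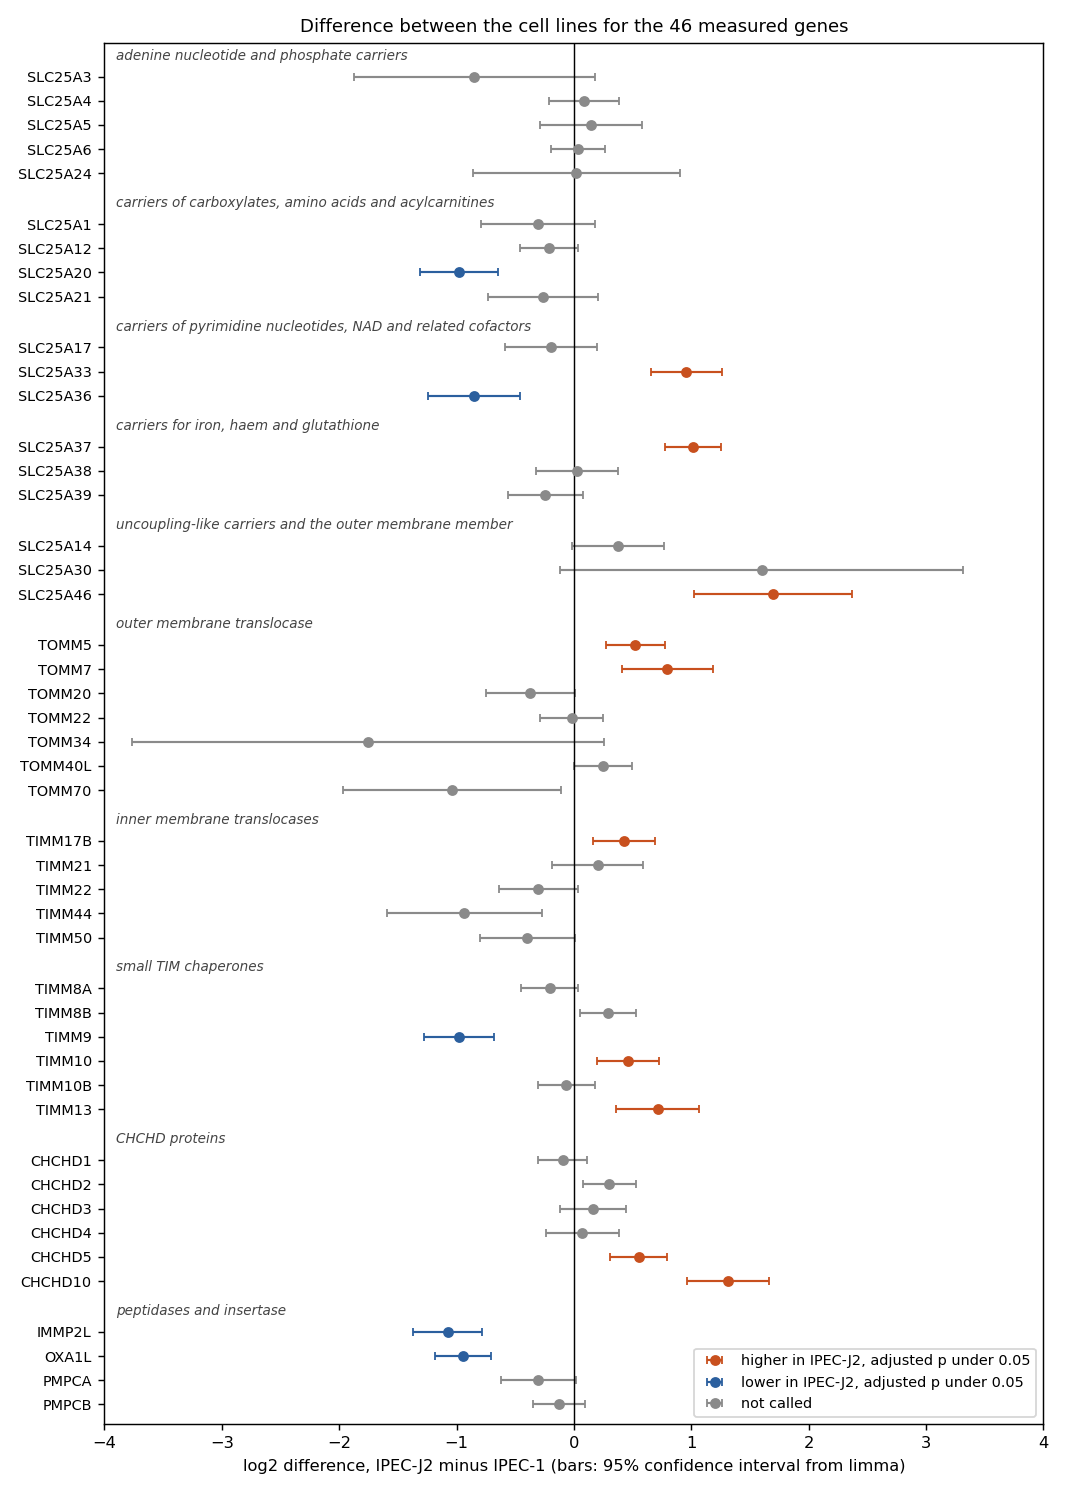
Difference in log2 signal, IPEC-J2 minus IPEC-1, for the 46 measured genes, with 95% limma intervals as bars and coloured points for adjusted p under 0.05. The 10 higher and 5 lower genes lie on both sides of zero, and the values run from -1.75 for TOMM34, which did not pass, to 1.70 for SLC25A46.

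Among the carriers, 3 of 18 measured genes were higher (16.7%) and 2 were lower (11.1%), beside 12.0% and 13.8% of all measured genes. The carriers that supply the ATP synthase with its substrates did not pass the test. SLC25A4, SLC25A5 and SLC25A6 exchange ADP for ATP across the inner membrane. SLC25A4 had signals of 8.68, 8.57 and 8.59 in IPEC-J2 and 8.63, 8.62 and 8.33 in IPEC-1. SLC25A5 had 11.53, 11.40 and 11.30 in IPEC-J2, against 11.58, 11.00 and 11.21 in IPEC-1. SLC25A6 had 13.29, 13.28 and 13.33 in IPEC-J2, against 13.33, 13.30 and 13.16 in IPEC-1. In all 3 genes the arrays of both lines overlapped. The differences were 0.09 (95% interval -0.21 to 0.38, adjusted p = 0.602) for SLC25A4, 0.15 (-0.29 to 0.58, adjusted p = 0.55) for SLC25A5 and 0.04 (-0.19 to 0.26, adjusted p = 0.788) for SLC25A6 by limma.

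SLC25A3, which carries phosphate into the matrix, had mean signals of 8.51, 9.80 and 9.97 in IPEC-J2 and 10.32, 10.38 and 10.12 in IPEC-1. The groups did not overlap, and IPEC-J2 replicate 1 stood below the other arrays of its line. The difference was -0.85 (95% interval -1.87 to 0.18, limma adjusted p = 0.184). One of its 2 probe sets lay at 4.00 on that array. The other gave 13.01, 12.91 and 12.94 in IPEC-J2 against 13.27, 13.43 and 13.19 in IPEC-1, a difference of -0.34. Its limma adjusted p was 0.103 in a fit of single probe sets and 0.0499 when the brightest probe set stands for each gene. SLC25A24, a calcium-regulated carrier of adenine nucleotides and phosphate, also had probe sets that went apart, with differences of 0.32 and -0.28, neither past the threshold. The second of these had 4.00 on IPEC-J2 replicate 1.

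The acylcarnitine carrier SLC25A20, which brings fatty acids into the matrix for oxidation, was lower in IPEC-J2. Its signals were 7.70, 7.97 and 8.08 in IPEC-J2 and 8.89, 8.99 and 8.80 in IPEC-1, with no overlap. This is 1.97-fold lower (-0.98, limma adjusted p = 0.00604). The other 3 measured carriers of carboxylates and amino acids had negative differences that did not pass, -0.31 for the citrate carrier SLC25A1, -0.21 for the aspartate/glutamate carrier SLC25A12 and -0.26 for the oxodicarboxylate carrier SLC25A21. SLC25A1 and SLC25A21 overlapped between the lines.

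The carriers of pyrimidine nucleotides went in opposite directions. SLC25A33 was higher in IPEC-J2, with 7.22, 7.57 and 7.34 against 6.45, 6.35 and 6.47 in IPEC-1. SLC25A36, which transports the same class of nucleotides, was lower, with 5.96, 6.44 and 6.41 in IPEC-J2 against 7.19, 7.12 and 7.05 in IPEC-1. Neither gene overlapped between the lines. SLC25A33 was 1.94-fold higher (0.96, limma adjusted p = 0.00476) and SLC25A36 1.80-fold lower (-0.85, adjusted p = 0.0153). One of the 2 probe sets of SLC25A33 lay at 4.00 on every array, which pulls the difference of the mean towards zero. The other had 10.45, 11.14 and 10.69 in IPEC-J2 and 8.89, 8.70 and 8.94 in IPEC-1, a difference of 1.92. Within each array, the averaged signal of SLC25A33 minus SLC25A36 was 1.26, 1.13 and 0.94 in IPEC-J2 and -0.74, -0.77 and -0.58 in IPEC-1, a shift of 1.81. The negative sign in IPEC-1 comes from averaging with the probe set at 4.00. The probe set of SLC25A33 above 4.00 lay higher than SLC25A36 on every array of both lines. This pair of genes and the pairs named further on were chosen after their values were seen and carry no test. Without IPEC-1 replicate 1, SLC25A36 had a difference of -0.81 and an adjusted p of 0.0519. SLC25A17, the peroxisomal member of the family, which carries cofactors such as coenzyme A, had -0.20 and overlapping arrays.

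Mitoferrin SLC25A37, which imports iron for haem and iron-sulphur clusters, was higher in IPEC-J2. Its signals were 8.06, 7.89 and 8.07 in IPEC-J2 and 6.96, 6.96 and 7.04 in IPEC-1. All arrays of IPEC-J2 lay above those of IPEC-1 and the averaged signals of a line lay close together. In IPEC-1 the SD was 0.048 for the average, but 0.193 and 0.14 for the 2 single probe sets. The signal was 2.02-fold higher (1.02 ± 0.0953, SE, limma adjusted p = 0.00166). Both probe sets were higher, by 1.26 and 0.77, with limma adjusted p of 0.0039 and 0.0189 in a fit of single probe sets. The glycine carrier of haem synthesis, SLC25A38, had a difference of 0.03 and the glutathione carrier SLC25A39 had -0.24, and neither passed.

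SLC25A46 belongs to the carrier family but sits in the outer membrane, where it takes part in mitochondrial fusion and fission. It was measured in IPEC-J2 alone, with 5.15, 6.19 and 5.75, against 4.00 on all 3 arrays of IPEC-1. The difference was 1.70 ± 0.269 (SE, limma adjusted p = 0.00967), and no fold is given since IPEC-1 lay at the lowest value. The signals in IPEC-J2 are low. Where 2 arrays of IPEC-J2 lay at 4.00, the remaining one reached a 95th percentile of 5.10. The carriers SLC25A14 and SLC25A30 are related to the uncoupling proteins. SLC25A30 had 4.00, 6.38 and 6.42 in IPEC-J2 and 4.00 on every array of IPEC-1, so that IPEC-J2 replicate 1 was the same as IPEC-1. Its difference of 1.60 did not pass (adjusted p = 0.148), but was 2.40 with an adjusted p of 0.000234 without IPEC-J2 replicate 1. SLC25A14 had a difference of 0.38 (adjusted p = 0.142), which was 0.53 (adjusted p = 0.024) without the same array.

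**Figure D2:**
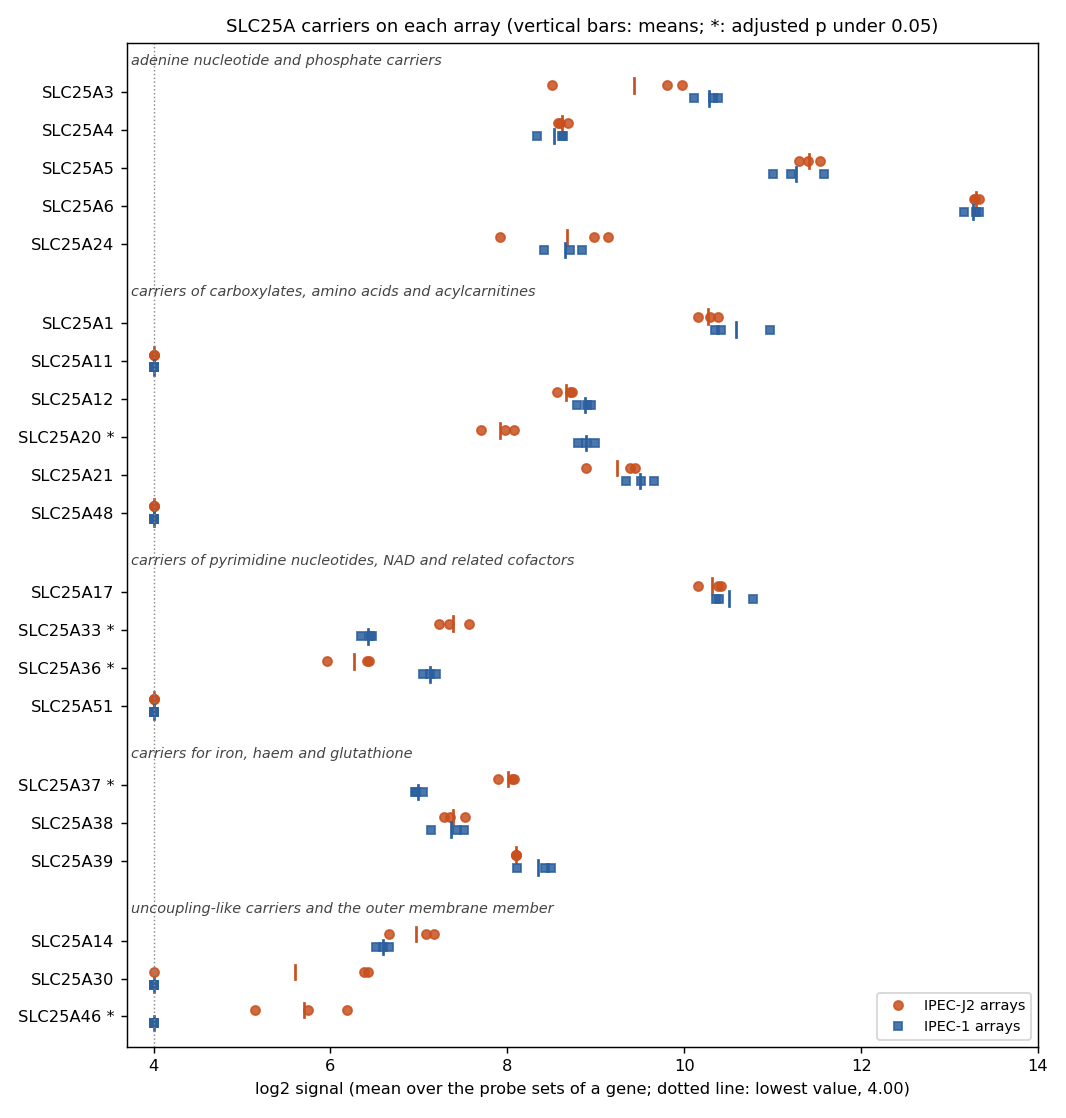
Log2 signal of each SLC25A carrier on each array, IPEC-J2 above IPEC-1 within a gene, with a short bar at the mean of 3 arrays, a dotted line at the lowest value of 4.00 and an asterisk for adjusted p under 0.05. SLC25A46, SLC25A37 and SLC25A33 lie higher in IPEC-J2 and SLC25A20 and SLC25A36 lower, while the arrays of SLC25A4, SLC25A5 and SLC25A6 overlap.

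In the outer membrane translocase, 2 of 7 measured genes passed, both higher in IPEC-J2 (28.6%, beside 12.0% of all measured genes). TOMM5 and TOMM7 encode small subunits that sit around the pore and affect its assembly. TOMM7 had 11.41, 11.54 and 11.44 in IPEC-J2, against 10.97, 10.53 and 10.50 in IPEC-1. TOMM5 had 10.94, 10.80 and 10.94 in IPEC-J2, against 10.48, 10.34 and 10.29 in IPEC-1. Both genes were higher on every array of IPEC-J2 than on any of IPEC-1. TOMM7 was 1.74-fold higher (0.80, limma adjusted p = 0.0176) and TOMM5 1.44-fold higher (0.52, adjusted p = 0.0168). With 1 array left out, the adjusted p of TOMM7 was 0.0569 without IPEC-J2 replicate 2, 0.0624 without IPEC-J2 replicate 3, 0.0553 without IPEC-1 replicate 2 and 0.0555 without IPEC-1 replicate 3, and that of TOMM5 was 0.0716 without IPEC-J2 replicate 3 and 0.0555 without IPEC-1 replicate 3.

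The receptors of the complex did not pass. TOMM20, the main receptor for presequences, had 10.69, 10.86 and 10.75 in IPEC-J2 and 11.42, 10.97 and 11.02 in IPEC-1, a difference of -0.37 (adjusted p = 0.133) without overlap. TOMM22, which joins the receptors to the pore, had 10.43, 10.33 and 10.33 in IPEC-J2 and 10.53, 10.35 and 10.26 in IPEC-1, a difference of -0.02 (95% interval -0.28 to 0.25, adjusted p = 0.927). TOMM70, the receptor for carriers, had 6.90, 8.06 and 7.95 in IPEC-J2 and 8.84, 8.25 and 8.93 in IPEC-1. All arrays of IPEC-J2 lay below those of IPEC-1, and the difference of -1.04 had a limma adjusted p of 0.0996. In the labels, IPEC-J2 replicate 3 and IPEC-1 replicate 1 share a short note (note A), and so do IPEC-J2 replicate 1 and IPEC-1 replicate 2 (note B). The meaning of these notes is not stated, and they are called culture notes here. IPEC-J2 replicate 2 and IPEC-1 replicate 3 share no note and were put together only because they remain. With these pairs as a block, TOMM70 passed (adjusted p = 0.0316), and so it did without both arrays of note B (-0.88, adjusted p = 0.0211), where TOMM7 and TOMM5 did not (adjusted p = 0.0923 and 0.0818). TOMM34, a cytosolic helper that binds precursors and chaperones, had 4.00, 6.69 and 6.82 in IPEC-J2 and 7.87, 7.22 and 7.68 in IPEC-1. Its difference of -1.75 did not pass (adjusted p = 0.166), and was -1.02 (adjusted p = 0.0233) without the arrays of note B. TOMM40L, a relative of the pore protein, had 0.25 and did not pass. Within each array, TOMM7 minus TOMM20 was 0.72, 0.68 and 0.69 in IPEC-J2 and -0.45, -0.44 and -0.52 in IPEC-1, a shift of 1.17 with an SD of 0.02 in IPEC-J2 and 0.04 in IPEC-1. The pore TOMM40 and its assembly factor SAMM50 were not analysed here.

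**Figure D3:**
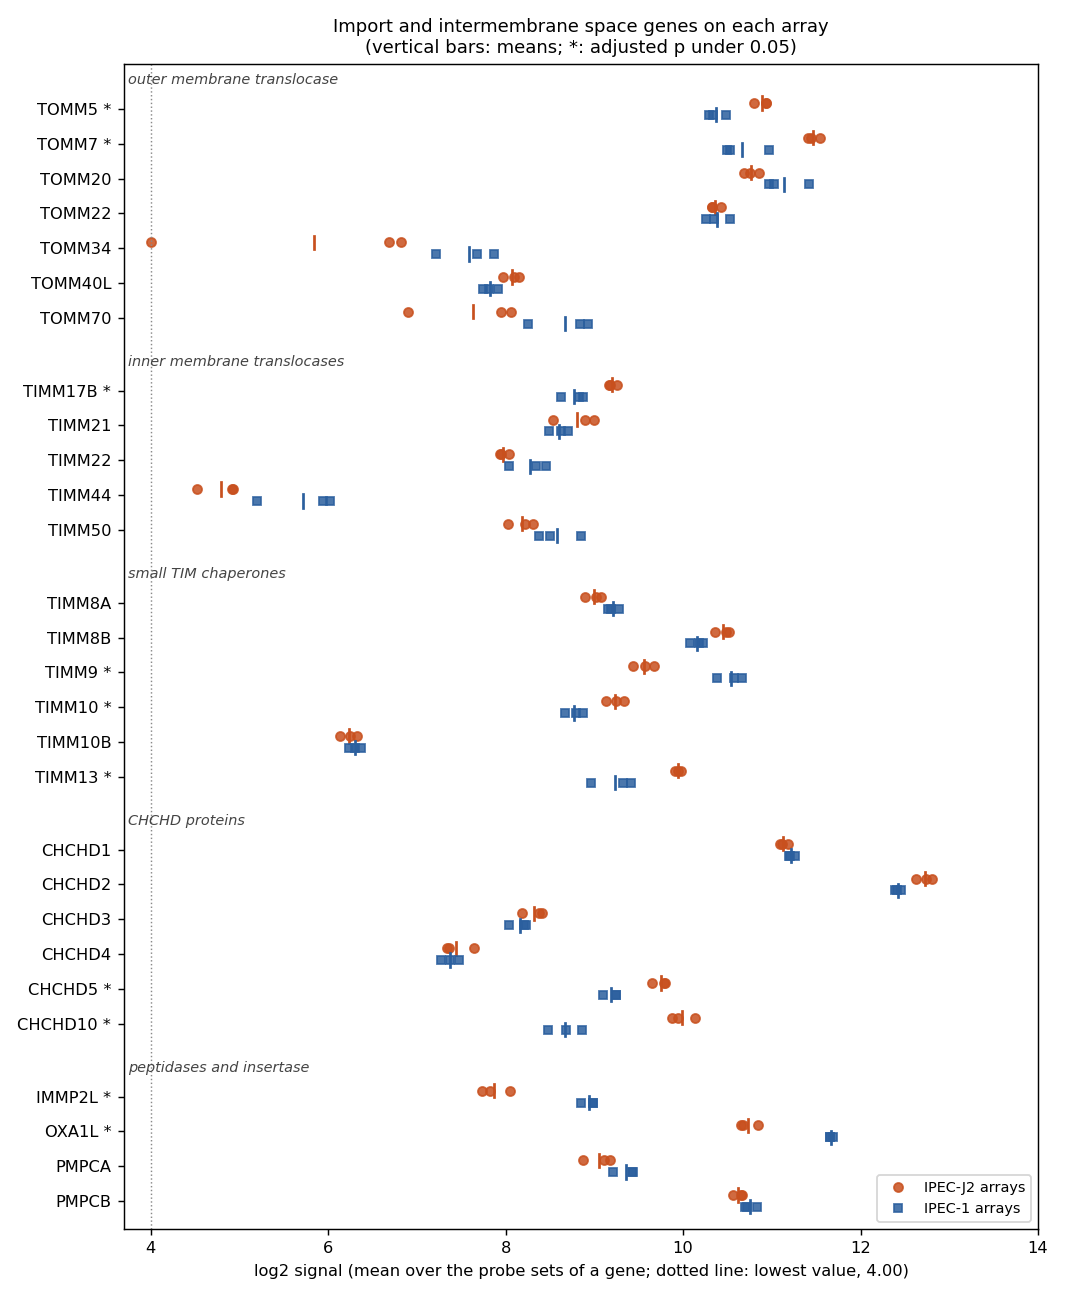
Log2 signal of each import, folding and processing gene on each array, IPEC-J2 above IPEC-1 within a gene, with a short bar at the mean of 3 arrays, a dotted line at the lowest value of 4.00 and an asterisk for adjusted p under 0.05. TOMM7, TIMM13 and CHCHD10 lie higher in IPEC-J2 and TIMM9, IMMP2L and OXA1L lower, and TOMM34 reaches 4.00 on IPEC-J2 replicate 1 alone.

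Of the inner membrane translocases, TIMM17B, a channel subunit of the TIM23 complex, was the single one of 5 to pass. This 1 gene is 20% of the 5, beside 12.0% of all measured genes that were called higher. TIMM17B had 9.18, 9.16 and 9.26 in IPEC-J2 and 8.83, 8.87 and 8.62 in IPEC-1, with no overlap. The signal was 1.34-fold higher (0.43, limma adjusted p = 0.0365). This call was lost without any 1 of the 6 arrays, with adjusted p of 0.0547 (IPEC-1 replicate 2) to 0.127 (IPEC-J2 replicate 3), with the culture notes as a block (0.0708) and without the arrays of note B (0.0809). TIMM44, which ties the matrix Hsp70 motor to the channel, had 4.52, 4.92 and 4.93 in IPEC-J2 and 6.03, 5.20 and 5.94 in IPEC-1. Its difference was -0.93 (adjusted p = 0.0529), without overlap. It rested on 3 probe sets, of which 1 lay at 4.00 on every array, another on IPEC-J2 replicate 1 alone and the last on IPEC-J2 replicates 2 and 3 and IPEC-1 replicate 2. TIMM44 passed with the culture notes as a block (adjusted p = 0.031) and without IPEC-1 replicate 2 (-1.19, adjusted p = 0.018). The receptor TIMM50 had 8.21, 8.31 and 8.03 in IPEC-J2 and 8.86, 8.51 and 8.38 in IPEC-1 (-0.40, adjusted p = 0.132). TIMM22, the channel for carriers, had 7.95, 8.04 and 7.94 in IPEC-J2 and 8.34, 8.46 and 8.04 in IPEC-1 (-0.30, adjusted p = 0.156). Both had negative differences that did not pass, and TIMM21, a further subunit of the TIM23 complex, had 0.20. TIMM17A and TIMM23 were not analysed here.

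The small TIM proteins work as hexamers in the intermembrane space, TIMM9 with TIMM10 and TIMM8A with TIMM13. IPEC-J2 showed TIMM9 lower and TIMM10 higher. TIMM9 had 9.44, 9.57 and 9.67 in IPEC-J2, against 10.66, 10.38 and 10.57 in IPEC-1. TIMM10 had 9.33, 9.25 and 9.13 in IPEC-J2, against 8.79, 8.87 and 8.67 in IPEC-1. In both genes all arrays of one line lay outside the range of the other. TIMM9 was 1.97-fold lower (-0.98, limma adjusted p = 0.00434) and TIMM10 1.38-fold higher (0.46, adjusted p = 0.0284). TIMM10 minus TIMM9 was -0.11, -0.32 and -0.54 in IPEC-J2 and -1.87, -1.51 and -1.90 in IPEC-1, a shift of 1.44. Without 1 array, TIMM10 was lost in 5 of 6 fits, with adjusted p of 0.0575 without IPEC-J2 replicate 1, 0.0773 without IPEC-J2 replicate 2, 0.0624 without IPEC-J2 replicate 3, 0.0732 without IPEC-1 replicate 1 and 0.083 without IPEC-1 replicate 3. With the culture notes as a block it was 0.0626, and without the arrays of note B 0.0678.

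Of the other hexamer, TIMM13 passed and TIMM8A did not, and a difference between their changes was not tested. TIMM13 had 9.91, 9.94 and 9.98 in IPEC-J2 and 9.41, 9.32 and 8.96 in IPEC-1, 1.64-fold higher in IPEC-J2 (0.71, limma adjusted p = 0.0186) and without overlap. TIMM8A, the gene of the human deafness-dystonia syndrome, had 9.02, 9.08 and 8.90 in IPEC-J2 and 9.15, 9.28 and 9.19 in IPEC-1, a difference of -0.21 that did not pass (adjusted p = 0.169). TIMM13 minus TIMM8A was 0.89, 0.86 and 1.08 in IPEC-J2 and 0.26, 0.04 and -0.23 in IPEC-1, a shift of 0.92. TIMM13 had an adjusted p of 0.0559 without IPEC-J2 replicate 2 of 0.0724 without IPEC-J2 replicate 3 and of 0.0808 without the arrays of note B. TIMM8B, a paralogue of TIMM8A, had 10.48, 10.52 and 10.36 in IPEC-J2 and 10.18, 10.22 and 10.08 in IPEC-1 (0.29, adjusted p = 0.0768), without overlap. TIMM10B, which binds the hexamer to the TIM22 complex, had -0.07, with 1 of its 2 probe sets at 4.00 throughout.

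**Figure D4:**
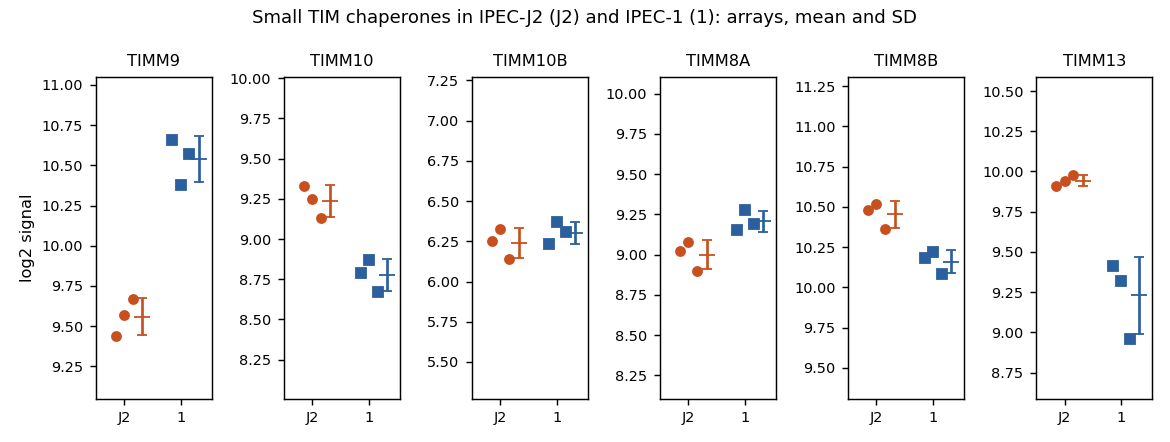
Log2 signal of the 6 small TIM genes, one panel a gene, with IPEC-J2 left of IPEC-1, a point for each array and, beside the points, the mean and SD of 3 arrays; every panel spans the same width of 2 log2 units. TIMM10 and TIMM13 lie higher in IPEC-J2 and TIMM9 lies lower, while TIMM8A, TIMM8B and TIMM10B did not pass the test.

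Of 6 CHCHD genes, whose proteins carry paired cysteines, 2 passed, both higher in IPEC-J2 (33.3%, beside 12.0% of all measured genes). CHCHD10, a protein of the intermembrane space linked in humans to motor neuron disease and myopathy, had 9.88, 10.14 and 9.94 in IPEC-J2 and 8.86, 8.48 and 8.68 in IPEC-1. The lowest array of IPEC-J2 lay well above the highest of IPEC-1. The signal was 2.49-fold higher (1.31 ± 0.139, SE, limma adjusted p = 0.00264). Its close relative CHCHD2 had 12.63, 12.80 and 12.74 in IPEC-J2 and 12.39, 12.46 and 12.41 in IPEC-1. Here the groups did not overlap either, but the difference of 0.30 had an adjusted p of 0.062, and of 0.049 without IPEC-J2 replicate 1. Of 19 alternative fits, CHCHD2 passed in 10, among them limma after quantile normalization (adjusted p = 0.0497) and the adjusted t-test (0.0292). It did not pass by limma with the replicate number (0.15) or the culture notes (0.13) as a block. CHCHD5 had 9.65, 9.79 and 9.80 in IPEC-J2 and 9.24, 9.10 and 9.24 in IPEC-1, 1.47-fold higher (0.55, limma adjusted p = 0.0129, and 0.0597 without IPEC-J2 replicate 3). CHCHD4, the oxidoreductase of the import relay for such proteins, had 7.34, 7.64 and 7.36 in IPEC-J2 and 7.48, 7.27 and 7.37 in IPEC-1, a difference of 0.07 (95% interval -0.24 to 0.39, adjusted p = 0.683). CHCHD3, a subunit of the cristae organising complex, and CHCHD1, a subunit of the mitochondrial ribosome, had 0.16 and -0.09.

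All 4 measured genes of processing and insertion lay lower on every array of IPEC-J2 than on any of IPEC-1, beside 27.6% of all measured genes, and 2 of them passed as lower, beside 13.8%. IMMP2L, a catalytic subunit of the inner membrane peptidase, had 7.82, 7.74 and 8.04 in IPEC-J2 and 8.99, 8.99 and 8.86 in IPEC-1. OXA1L, the insertase that places proteins into the inner membrane from the matrix side, had 10.65, 10.68 and 10.85 in IPEC-J2 and 11.69, 11.66 and 11.66 in IPEC-1. The arrays of IPEC-1 differed by little in both genes. IMMP2L was 2.11-fold lower (-1.08 ± 0.117, SE, limma adjusted p = 0.00284), with -1.06 and -1.09 in its 2 probe sets, and OXA1L was 1.92-fold lower (-0.94 ± 0.0949, adjusted p = 0.00215). The subunits of the matrix peptidase did not pass. PMPCA had 8.87, 9.18 and 9.11 in IPEC-J2 and 9.44, 9.42 and 9.21 in IPEC-1 (-0.30, adjusted p = 0.144). PMPCB, the catalytic subunit, had 10.56, 10.66 and 10.65 in IPEC-J2 and 10.83, 10.72 and 10.70 in IPEC-1 (-0.13, adjusted p = 0.35). IMMP1L, the partner of IMMP2L, was not analysed here.

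The same comparison was read within the culture notes, with 1 array of each line per pair. All 15 genes that passed had the same sign in note A, in note B and in the remaining pair. TIMM9 fell by 0.99, 0.94 and 1.00 and CHCHD5 was higher by 0.56, 0.55 and 0.55, in that order of pairs. Other genes varied more between pairs, with 0.47, 0.88 and 1.04 for TOMM7 and 1.75, 1.15 and 2.19 for SLC25A46. The median over the 46 genes was -0.09, -0.09 and 0.08. A pair has no replicate of its own, so that these values carry no test, and an exact permutation test of 3 against 3 arrays cannot go below a p of 0.1.

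**Figure D5:**
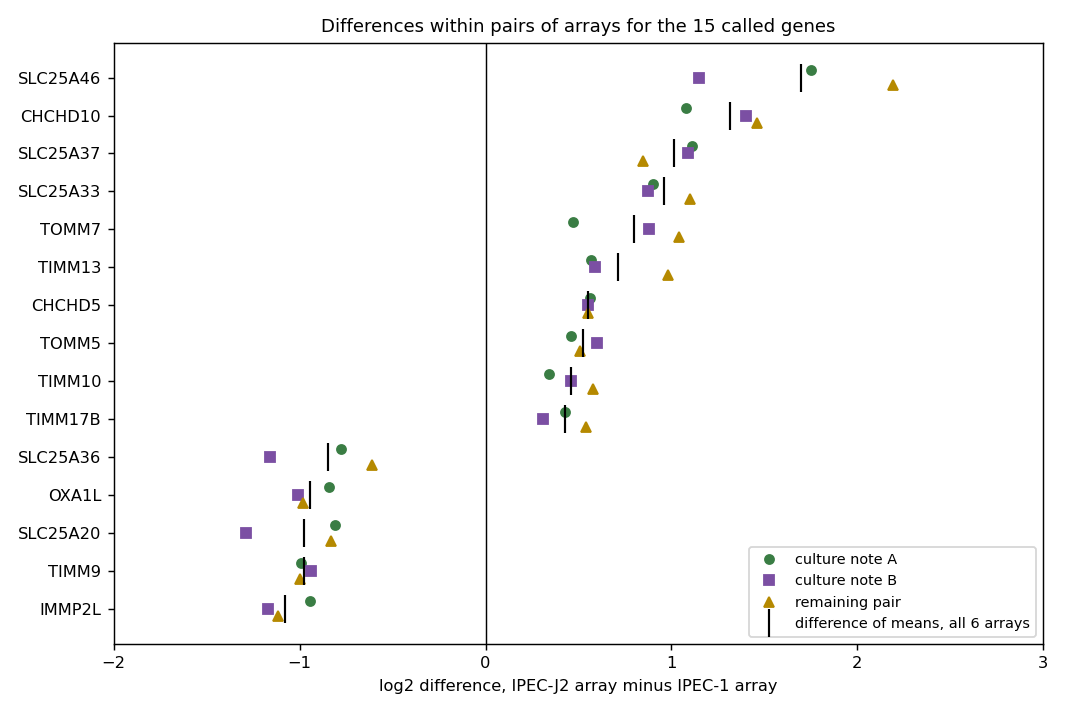
Difference in log2 signal, IPEC-J2 minus IPEC-1, for the 15 genes that passed, with 1 point for each pair of arrays (culture note A, culture note B, remaining pair) and a bar at the difference of the means of all 6 arrays. The points of each gene lie on the same side of zero, close together for TIMM9 and CHCHD5 and farther apart for SLC25A46.

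Other genes of the pathway were read from lists of partners. Of 18 measured partners of import, 3 were higher and 3 lower (16.7% each), beside 12.0% higher and 13.8% lower of all measured genes. The higher ones were MTX2 (0.51, limma adjusted p = 0.0152), an outer membrane subunit of the sorting machinery, GFER (0.42, adjusted p = 0.0246), the oxidase that recharges CHCHD4, and the cytosolic chaperone HSPA8 (0.57, adjusted p = 0.0357). The lower ones were the cochaperones DNAJA2 (-0.81, adjusted p = 0.00356) and DNAJC19 (-0.77, adjusted p = 0.0362) and PITRM1, which degrades cleaved presequences and had 4.00 on every array of IPEC-J2, against 6.32, 7.61 and 6.29 in IPEC-1 (adjusted p = 0.00633). The matrix chaperones HSPA9, HSPD1 and HSPE1, which drive import and fold the imported proteins, had 0.54, 0.37 and -0.08 and did not pass.

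Of 9 measured genes of cristae and inner membrane quality control, the cristae subunit MINOS1 was higher (0.53, limma adjusted p = 0.0214) and the rhomboid protease PARL lower (-0.55, adjusted p = 0.0172). Each is 11.1% of the list, beside 12.0% higher and 13.8% lower of all measured genes. Of 11 measured channels and carriers with other names, 4 were higher (36.4%) and 1 lower (9.1%). VDAC1, the main pore for metabolites in the outer membrane, was 1.73-fold higher (adjusted p = 0.0289) and MPC2, a subunit of the pyruvate carrier, 1.70-fold higher (adjusted p = 0.00604). MPC1, VDAC2 and VDAC3 overlapped between the lines and did not pass, with differences of -0.24, -0.05 and 0.45 (limma adjusted p = 0.345, 0.91 and 0.188). MTCH2 and MTCH1, carrier-like proteins of the outer membrane, went in opposite directions, with 8.91, 9.45 and 9.14 in IPEC-J2 against 8.62, 8.12 and 8.41 in IPEC-1 for MTCH2 (1.72-fold higher, adjusted p = 0.0384) and 10.92, 10.92 and 10.90 in IPEC-J2 against 11.76, 12.03 and 12.21 in IPEC-1 for MTCH1 (2.12-fold lower, adjusted p = 0.00474). The cholesterol-binding outer membrane protein TSPO was measured in IPEC-J2 alone, with 9.70, 10.67 and 10.09 against 4.00 on all arrays of IPEC-1. None of 7 measured genes of mitochondrial mass and biogenesis passed by limma, 1 had an unadjusted p under 0.05 by limma and 1 by the methods' t-test, and none passed by the adjusted t-test. In other limma fits, 1 of the 7 was higher with the culture notes as a block (the fission protein DNM1L, adjusted p = 0.04996), 1 higher without IPEC-J2 replicate 2, 1 lower with the notes as a random block, and 1 higher and 1 lower with the brightest probe set per gene. Among them, citrate synthase CS, a usual measure of mitochondrial content, had a difference of 0.28 (adjusted p = 0.167) and the mitochondrial DNA factor TFAM -0.24 (adjusted p = 0.437). Over the 45 measured genes of these lists the median difference was 0.08, beside -0.05 over all measured genes. Of the 45, 8 were higher (17.8%) and 5 lower (11.1%), beside 12.0% and 13.8% of all measured genes. Of these 13, DNAJA2, MPC2, MTCH1, PITRM1 and TSPO passed with any 1 array left out. The other 8 all lost their call without IPEC-J2 replicate 3 and in further fits, DNAJC19, HSPA8 and MTCH2 in 5 of the 6, GFER, MINOS1 and VDAC1 in 4 and MTX2 and PARL in 2, with adjusted p up to 0.111 for HSPA8. With the culture notes as a block, DNAJC19, GFER, MINOS1 and PARL lost their call, with adjusted p of 0.0565, 0.0774, 0.0582 and 0.0545, and DNM1L gained one.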

How the data were processed

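Labelled cRNA was made from 500 ng RNA per culture. For the deposited log2 signals the submitters' processing notes name GCOS 1.1.1 and PLIER. By the methods, the authors scaled each array globally, corrected the background, normalized and summarised the probe sets. Neither the base of the logarithm nor how arrays were normalized to each other is given in the sources used here. Values were read as log2 because the lowest value, 4.00, is the log2 of 16. Labels gave the cell line and replicate number. They name one cell bank entry for both lines, which the methods do not. Of 24123 probe sets, 124 controls were left out, 10069 had 1 symbol in the platform annotation, 198 had several and 13732 were unnamed here. Probe sets were averaged per symbol to 6765 genes. The methods average in the same way, but over symbols taken from Ensembl. Those at the lowest value on every array, 1252, were left out, since genes without spread may lower the prior variance.

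The test of the 5513 others was limma (version 3.58.1, R 4.3.3, lmFit and eBayes), two-sided and without a block, with Benjamini-Hochberg adjustment and a threshold of 0.05. Intervals are 95% and unadjusted. The fit was tested on simulated data. Members and lists were chosen with earlier results of these data known. Per-array values are given for members that passed and for the main receptors, translocases, chaperones, peptidases and adenine nucleotide and phosphate carriers. Partners are named where called, at most 4 a list and direction, and some uncalled ones are named beside them. Alternatives were other probe-set rules, normalizations, offsets, filters, tests and blocks, and single arrays left out. No sequences are shown, and positions are left out because the sources used here name no genome build.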

Additional observations from a re-analysis of the deposited data

How the results depend on the processing

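Over 19 alternatives, no gene that passed changed its sign, and 8 of the 15 passed in every alternative that could test them. These were CHCHD10, IMMP2L, OXA1L, SLC25A20, SLC25A33, SLC25A37, SLC25A46 and TIMM9. SLC25A46 was tested in 18 of the 19, since the filter on low mean signals left it out. Its arrays of IPEC-1 all lay at 4.00, and its SE and p treat this lowest value as exact. With the offset on the linear scale its difference was smaller than in the main fit, though it passed. Of the 31 that did not pass, 11 passed in at least 1 alternative and 12 changed sign in at least 1. The 10 higher genes were 4 with the replicate block, a fit with the replicate number of the labels as a block, and 4 to 11 with 1 array left out. The 5 lower genes were 8 by the methods' t-test without adjustment, 8 without the arrays of culture note B (an alternative chosen after seeing the data) and 4 to 6 with 1 array left out. Deviations of arrays with the same replicate number from the mean of their line correlated by -0.06, -0.11 and 0.06. Those of the pairs by culture note correlated by 0.06 (A), 0.17 (B) and 0.09 (remaining pair), with a consensus correlation of 0.29 as a random block. With 3 arrays a line the deviations depend on each other, so these correlations cannot decide which arrays were paired. With the replicate block 8 of the 15 passed and 283 genes of the whole table were higher and 309 lower, in place of 662 and 762. Of the partner lists, 8 higher and 5 lower genes in the main comparison were 5 higher by the adjusted t-test, 8 lower by the unadjusted one, 2 higher and 3 lower with the replicate block, 3 lower with the culture notes as a block, 3 higher and 3 lower without the arrays of note B, and 2 to 8 higher and 3 to 4 lower with 1 array left out. Over the whole table, 376 genes were higher and 401 lower without IPEC-J2 replicate 3, 441 were higher without IPEC-J2 replicate 2, 479 lower without IPEC-1 replicate 3, 483 lower without the arrays of note B and 1154 lower by the unadjusted t-test. Fits with fewer arrays or with a block have fewer residual degrees of freedom; other causes were not tested. Array centring on the 75th percentile moved the median of all genes to 0.00. Precision is limited by 3 arrays a line and, for the genes named with signals of 4.00, by the lowest value of the table.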
